A study of Homo sapiens and Mus musculus with 12 samples.

Results

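The ELR chemokine cluster genes are the CXC chemokine genes *CXCL1*, *CXCL2*, *CXCL3*, *CXCL5*, *CXCL6* and *CXCL8*, whose products carry a Glu-Leu-Arg (ELR) motif before the first pair of cysteines. Members were chosen by symbol, giving 6 of the 63677 human genes and, by the mouse genes of the same symbols (*Cxcl1*, *Cxcl2*, *Cxcl3* and *Cxcl5*), 4 of the 47729 mouse genes in the count tables. *CXCL6* and *CXCL8* have no mouse gene of that name. The mRNA of each gene was counted by RNA-seq in MDA-MB-231, a human triple-negative breast cancer (TNBC) line, and in 4T1, a line from a mouse mammary carcinoma, both of wild-type genotype. Cells of each line received 1 μM of the tyrosine kinase inhibitor ponatinib, which acts on several kinases, or its solvent DMSO for 24 h, with 3 libraries in each of the 4 groups. Each line is a single established culture at a single dose and time, and the labels do not say whether the 3 libraries of a group came from separate cultures, so P values measure the spread between these libraries, which may be technical.

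ELR chemokines are small secreted proteins that draw neutrophils and related myeloid cells towards their source. They act through the receptors CXCR1 and CXCR2, which sit mainly on those myeloid cells. Tumor cells make them in response to interleukin-1, tumor necrosis factor and related signals, through NF-κB, AP-1 and p38 signaling, and their mRNAs are short-lived. The genes arose by local duplication and lie side by side, so that close copies such as *CXCL1*, *CXCL2* and *CXCL3* can be controlled together or apart, and the study itself was centered on *CXCL1* and *CXCL2*. The other paralogs receive the most attention here.

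The 6 human genes span 358.678 kb of chromosome 4 (hg38, chr4:73740519-74099196), in the order *CXCL8*, *CXCL6*, *CXCL1*, *CXCL5*, *CXCL3* and *CXCL2*. The 4 mouse genes span 146.612 kb of chromosome 5 (GRCm39, chr5:90907186-91053797), in the order *Cxcl5*, *Cxcl3*, *Cxcl1* and *Cxcl2*. *CXCL8*, *CXCL6* and *CXCL1* lie on the plus strand and *CXCL5*, *CXCL3* and *CXCL2* on the minus strand, whereas all 4 mouse genes lie on the plus strand.

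The stretch upstream of the start site is shown for every member because the members share 9 letters there, GGAATTTCC, while their responses to ponatinib differed. Human sequences are from RefSeq promoter windows (GRCh38.p14, all 6 matched), and mouse sequences were read from GRCm39 at the start of the canonical GENCODE transcript. Each covers 69 bases, 5′ to 3′ on the strand of the gene, with the 9 letters in capitals, and ends before the first base of any annotated coding transcript of the gene. The coordinates are chr4:73869285-73869353 for *CXCL1*, chr4:74099234-74099302 for *CXCL2*, chr4:74038729-74038797 for *CXCL3*, chr4:73998729-73998797 for *CXCL5*, chr4:73836559-73836627 for *CXCL6* and chr4:73740448-73740516 for *CXCL8*. In the mouse they are chr5:91039004-91039072 for *Cxcl1*, chr5:91051632-91051700 for *Cxcl2*, chr5:90933858-90933926 for *Cxcl3* and chr5:90907100-90907168 for *Cxcl5*.
CXCL1: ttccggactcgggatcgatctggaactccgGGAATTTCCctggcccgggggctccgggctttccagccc
CXCL2: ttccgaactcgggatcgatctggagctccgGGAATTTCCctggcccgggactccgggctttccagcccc
CXCL3: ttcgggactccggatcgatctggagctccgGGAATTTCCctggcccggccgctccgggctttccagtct
CXCL5: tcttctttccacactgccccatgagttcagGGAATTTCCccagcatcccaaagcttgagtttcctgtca
CXCL6: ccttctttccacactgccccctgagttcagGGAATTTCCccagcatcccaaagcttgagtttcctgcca
CXCL8: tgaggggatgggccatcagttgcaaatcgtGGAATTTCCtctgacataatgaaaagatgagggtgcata
Cxcl1: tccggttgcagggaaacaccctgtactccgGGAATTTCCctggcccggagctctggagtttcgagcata
Cxcl2: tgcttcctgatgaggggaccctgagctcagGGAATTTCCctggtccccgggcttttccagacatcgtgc
Cxcl3: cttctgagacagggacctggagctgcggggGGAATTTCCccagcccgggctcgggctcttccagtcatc
Cxcl5: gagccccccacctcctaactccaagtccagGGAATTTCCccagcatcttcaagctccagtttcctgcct

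The letters GGAATTTCC occurred, on either strand, in all 6 human and all 4 mouse members, against 0.462% of 35091 human and 0.345% of 21757 mouse promoter windows of the same length (300 bases). The letters were chosen because the members share them, so their presence in every member followed from that choice. The members are also copies of each other and do not count as independent matches. These letters began 77 to 91 bases before the RefSeq start site in the human genes and 60 to 107 bases before the canonical one in the mouse genes. By these start sites *CXCL8* and *Cxcl5* were the most distant in their species. Their printed stretches nevertheless ended nearest to the first annotated coding transcript, 3 and 18 bases before it, so the order depends on the start site. The longer NF-κB consensus, known as the kappaB site, overlapped these letters in 5 of 6 human members, all but *CXCL8*, and in 4 of 4 mouse members, against 11.3% and 8.97% of all windows. The AP-1 letters TGANTCA were found in *CXCL8* alone (7.71% of human and 7.15% of mouse windows hold them). TATAAA was found in *CXCL8* and *Cxcl3* (11.5% and 13.2% of all windows). These matches are descriptions of the windows and were not tested for binding.

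The MDA-MB-231 libraries held 15012884 to 17301760 counts each, and the 4T1 libraries 17800675 to 18951493. In each line apart, the genes that passed a low-count filter, 14610 human and 13286 mouse, were tested in edgeR (quasi-likelihood, Benjamini-Hochberg adjusted P under 0.05). Of the leukocyte markers, 9 of 10 in MDA-MB-231 and 10 of 11 in 4T1 stayed under 1 CPM (the count of a gene scaled to the TMM-adjusted total of its library) in every library, with *PTPRC*, *S100A8*, *S100A9*, *MPO* and *LYZ* at 0 in all 6 human libraries and *Itgam*, *Csf3r*, *S100a9*, *Mpo*, *Elane* and *Cd3e* at 0 in all 6 mouse libraries. The exception was the monocyte co-receptor gene *CD14*, and with it the summed leukocyte list held 1.45 to 3.06 CPM over the MDA-MB-231 libraries and, in 4T1, 224 to 250 CPM with DMSO and 139 to 156 CPM with ponatinib. Epithelial markers were present in both lines (931 to 1992 CPM summed in MDA-MB-231, 5734 to 6834 CPM in 4T1), although *CDH1*, the E-cadherin gene that defines epithelial junctions, averaged 0 CPM with DMSO in MDA-MB-231. The summed fibroblast markers held 26.4 to 31.5 CPM with DMSO and 81.4 to 87.8 CPM with ponatinib in MDA-MB-231, nearly all from *COL1A1* and *PDGFRB*, with 4 of 6 markers under 1 CPM in every library. The part of these markers in the chemokine values was not tested.

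In MDA-MB-231, every ELR chemokine gene that was expressed fell with ponatinib, and the fall was deepest in *CXCL8* and shallowest in *CXCL2*. All 4 tested members were lower, where 26.8% of all tested genes were lower and 27.2% were higher. Their median log2 fold change was -2.25, against 0.02 over all tested genes. The ponatinib libraries did not overlap the DMSO libraries for any of the 4, which was also true of 60.4% of tested genes.

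*CXCL8*, which encodes interleukin-8, the archetypal neutrophil attractant, had 4867, 6238 and 5887 counts in the 3 DMSO libraries and 447, 610 and 674 counts in the 3 ponatinib libraries. Every ponatinib library was thus far below every DMSO library. This corresponds to 366 ± 40.8 CPM (SD, n = 3 libraries) under DMSO and 34.7 ± 5.68 CPM under ponatinib. The log2 fold change was -3.40 (SE 0.13, adjusted P = 4.9e-09 by edgeR), a 10.5-fold lower level at the 0.144th percentile of all tested genes. In bulk RNA, fewer cells expressing a gene and less mRNA per cell cannot be told apart.

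*CXCL1*, also known for its growth-regulating activity in melanoma, had 5828, 6421 and 6414 counts with DMSO and 1087, 1095 and 1263 counts with ponatinib. The ponatinib libraries lay close together and well below the DMSO libraries. Its log2 fold change was -2.54 (SE 0.07, adjusted P = 1.08e-09 by edgeR), from 402 ± 14.7 CPM to 69.2 ± 0.594 CPM (SD, n = 3).

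*CXCL3*, a close copy of *CXCL2*, was the least abundant of the expressed members but responded more strongly than *CXCL2*. Its counts were 329, 412 and 423 with DMSO and 84, 108 and 128 with ponatinib, so the groups were separated. The level went from 25.0 ± 2.79 CPM to 6.40 ± 0.952 CPM (SD, n = 3), a log2 fold change of -1.97 (SE 0.14, adjusted P = 6.67e-07 by edgeR). *CXCL2* counts were 682, 792 and 778 with DMSO and 359, 413 and 457 with ponatinib. Here the groups were separated by a narrower margin, and the log2 fold change was -0.98 (SE 0.10, adjusted P = 6e-06 by edgeR). The 95% interval of *CXCL2*, from -1.18 to -0.77, did not overlap those of *CXCL3* (-2.28 to -1.65), *CXCL1* (-2.70 to -2.38) or *CXCL8* (-3.68 to -3.12).

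The remaining human members were all but silent. *CXCL5*, which encodes a neutrophil attractant first described in epithelial cells, had 2, 0 and 1 counts with DMSO and 4, 0 and 0 with ponatinib. *CXCL6*, its closest relative, had 0 counts in all 6 libraries, which allows up to 0.164 to 0.199 CPM per library (3 counts, counting error only). Neither gene passed the low-count filter, so no fold change is given. Both carry the same 9 letters upstream as the 4 expressed genes.

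When levels were scaled for transcript length (RPKM, which is CPM per kilobase of merged exons), the order of the members changed under ponatinib. With DMSO, *CXCL1* stood highest at 295 RPKM, followed by *CXCL8* at 141, *CXCL2* at 34.7 and *CXCL3* at 11.3 RPKM. With ponatinib, *CXCL1* stood at 50.8, *CXCL2* at 17.6, *CXCL8* at 13.4 and *CXCL3* at 2.88 RPKM, so that *CXCL2* had passed *CXCL8*. Neighbours in each order did not overlap between libraries. The closest were *CXCL2* (16.2 to 18.8 RPKM) and *CXCL8* (10.9 to 15.0 RPKM) with ponatinib.

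**Figure D1:**
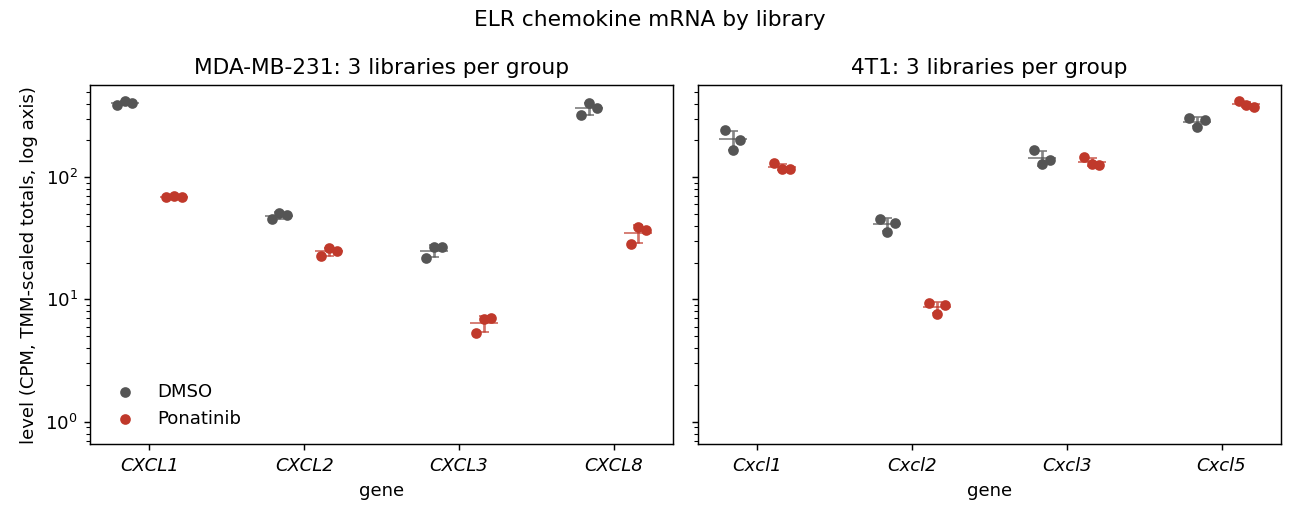
Level of each tested ELR chemokine gene (CPM, log axis) in every library, DMSO in gray and ponatinib in red, for MDA-MB-231 (left) and 4T1 (right). Points are libraries, horizontal ticks the mean and bars 1 SD (n = 3). The 4 human genes were lower in every ponatinib library, whereas in 4T1 *Cxcl1* and *Cxcl2* were lower, *Cxcl5* was higher and *Cxcl3* overlapped.

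In 4T1, the members parted: *Cxcl2* and *Cxcl1* fell, *Cxcl5* rose, and *Cxcl3* did not pass the test. Of the 4 tested members, 2 were lower, where 29.4% of all tested genes were lower, and 1 was higher, where 29.5% were higher. The groups of libraries did not overlap for *Cxcl1*, *Cxcl2* and *Cxcl5*, as for 63.4% of tested genes. The median log2 fold change of the members was -0.43, against 0 within rounding (-0.00014) over all tested genes.

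*Cxcl5*, the mouse gene named after human *CXCL5*, had 5352, 4651 and 5318 counts with DMSO and 8165, 7541 and 6938 counts with ponatinib. All 3 ponatinib libraries exceeded all 3 DMSO libraries. The level rose from 284 ± 23.2 CPM to 394 ± 21.0 CPM (SD, n = 3), with a log2 fold change of 0.47 (95% interval 0.30 to 0.64, adjusted P = 0.000155 by edgeR). The rise was 1.39-fold and stood at the 76.5th percentile of all tested genes. Of these genes, 20.2% rose by at least 0.5 on the log2 scale with an adjusted P under 0.05 by edgeR.

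*Cxcl3* had 2954, 2298 and 2505 counts with DMSO and 2845, 2469 and 2329 counts with ponatinib, and the groups overlapped. Its log2 fold change was -0.11 (SE 0.10, 95% interval -0.32 to 0.09, adjusted P = 0.331 by edgeR), a direction that turned to 0.0043 when libraries were scaled by total counts and to 0.0029 when DMSO replicate 1, which held the most *Cxcl3* counts, was left out. Falls of the size seen for human *CXCL3* therefore lay outside the interval.

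*Cxcl2* counts were 801, 639 and 775 with DMSO and 184, 148 and 165 with ponatinib, the widest separation among the mouse members. The log2 fold change was -2.24 (SE 0.13, adjusted P = 2.57e-09 by edgeR), which made *Cxcl2* 4.74-fold lower. *Cxcl1* counts were 4260, 3023 and 3668 with DMSO and 2537, 2262 and 2153 with ponatinib. Its DMSO libraries were spread widely, all above the ponatinib libraries, and the log2 fold change was -0.75 (SE 0.11, adjusted P = 3.44e-05 by edgeR).

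Scaled for length, *Cxcl5* had the highest level of the 4 mouse genes with DMSO, at 150 RPKM, above *Cxcl1* at 108, *Cxcl3* at 41.2 and *Cxcl2* at 19.9 RPKM. The order was the same with ponatinib, at 208, 64.4, 38.1 and 4.19 RPKM respectively. The closest neighbours, *Cxcl5* (136 to 160 RPKM) and *Cxcl1* (89.3 to 128 RPKM) with DMSO, did not overlap between libraries.

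The effect of ponatinib differed between the lines for each of the 3 members that were expressed in both. The interaction of line and treatment was tested in edgeR over 12493 genes with the same symbol, of which 41.9% passed. The difference, 4T1 minus MDA-MB-231, was 1.72 for *CXCL1* (95% interval 1.42 to 2.02, adjusted P = 1.59e-08) and 1.78 for *CXCL3* (1.41 to 2.15, adjusted P = 1.6e-07) on the log2 scale. *CXCL1* thus fell less in 4T1, and *Cxcl3*, whose human namesake fell in MDA-MB-231, did not pass the test in 4T1. For *CXCL2* the difference was -1.34 (-1.68 to -1.003, adjusted P = 1.81e-06), so *CXCL2* fell more in 4T1. The ranking of *CXCL1* and *CXCL2* was thus opposite in the lines. For *CXCL5* the fitted difference was 0.12, with an interval from -3.50 to 3.75 and adjusted P = 1 in edgeR, since the human gene held at most 4 counts per library. A shared symbol does not establish that 2 genes descend from the same ancestral copy, and the lines differ in species as well as in origin, which cannot be told apart here.

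**Figure D2:**
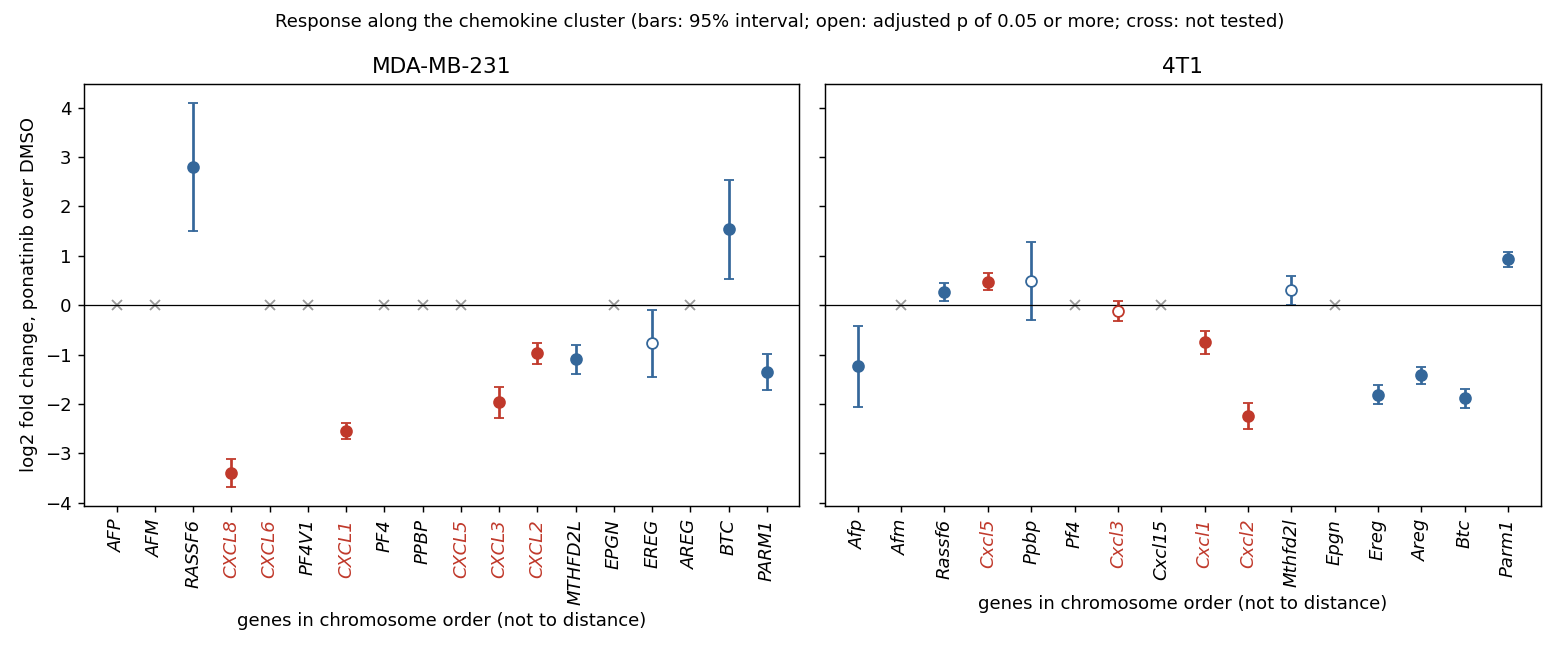
Log2 fold change of ponatinib over DMSO (vertical axis) for members (red) and neighbouring genes (blue), in chromosome order and not to distance, with MDA-MB-231 on the left and 4T1 on the right. Bars are 95% intervals, filled points have an adjusted P under 0.05, and crosses mark genes that were not tested. *CXCL8*, *CXCL1*, *CXCL3* and *CXCL2* lie between -3.40 and -0.98, whereas the mouse members range from -2.24 to 0.47.

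The summed ELR chemokine mRNA was lower in every ponatinib library of MDA-MB-231 and overlapped between the groups in 4T1. No test was run on the sum. In MDA-MB-231, the members together held 777, 898 and 850 CPM with DMSO and 125, 142 and 138 CPM with ponatinib, a 6.23-fold lower mean. In 4T1 they held 758, 590 and 671 CPM with DMSO and 702, 642 and 628 CPM with ponatinib. These groups overlapped, and their means of 673 ± 84.2 and 657 ± 39.3 CPM (SD, n = 3) gave a log2 ratio of -0.03, which turned to 0.08 with total counts. The rise of *Cxcl5*, from 284 to 394 CPM, was of a size with the combined falls of *Cxcl1* (203 to 121 CPM) and *Cxcl2* (41.1 to 8.67 CPM).

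The makeup of the sum differed between the groups in both lines, as shares of member counts not scaled for length. In MDA-MB-231, *CXCL8* held 43.4% ± 1.72 under DMSO and 25.6% ± 2.62 under ponatinib (SD, n = 3), and *CXCL2* held 5.77% ± 0.0562 and 18.3% ± 0.249. In 4T1, *Cxcl5* held 42.4% ± 2.07 under DMSO and 60.0% ± 0.637 under ponatinib, and *Cxcl1* held 30.1% ± 1.70 and 18.4% ± 0.191. None of these shares overlapped between the groups. The share of *Cxcl3* was 21.4% ± 0.869 with DMSO and 20.2% ± 0.435 with ponatinib, with overlapping libraries. That of *CXCL1*, the largest in MDA-MB-231, also overlapped, at 46.3% to 49.8% with DMSO and 49.2% to 54.9% with ponatinib. Count ratios within a library, which need no scaling, separated the groups as well. The ratio of *Cxcl5* to *Cxcl1* was 1.26, 1.54 and 1.45 with DMSO and 3.22, 3.33 and 3.22 with ponatinib. That of *CXCL8* to *CXCL2* was 7.14, 7.88 and 7.57 with DMSO and 1.25, 1.48 and 1.48 with ponatinib. Each of the 10 ratios computed had groups that did not overlap, with a two-sided exact permutation P = 0.1 before and after adjustment, the smallest that 3 against 3 libraries allow.

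**Figure D3:**
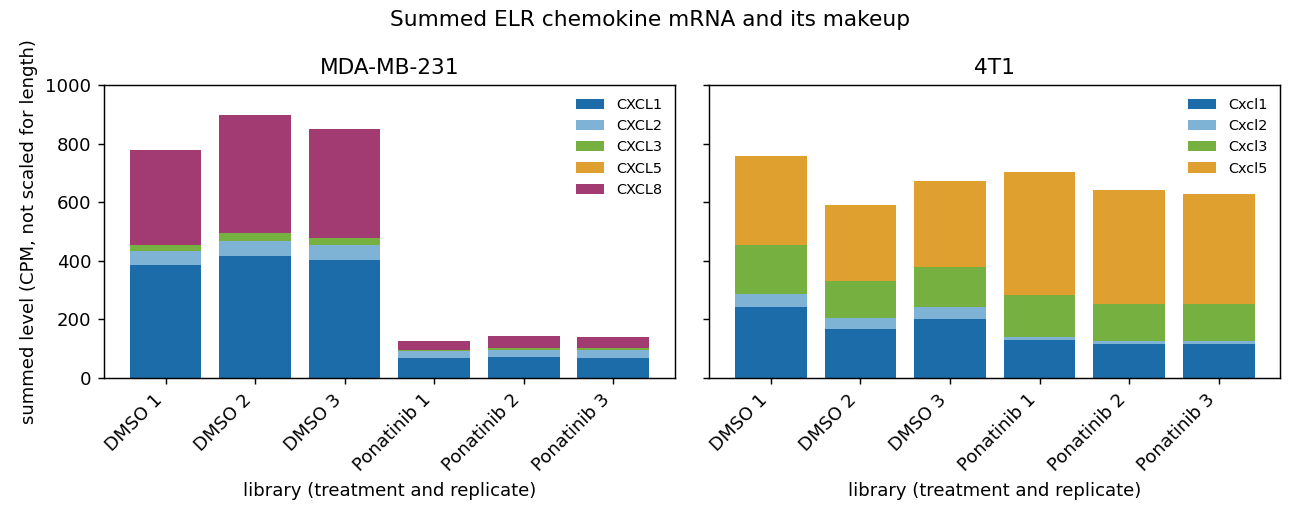
Summed level of the ELR chemokine genes (vertical axis, CPM, not scaled for length) in each MDA-MB-231 library (left) and each 4T1 library (right), with each bar divided by gene. The MDA-MB-231 sums lie at 777–898 CPM under DMSO and 125–142 CPM under ponatinib, whereas in 4T1 the DMSO libraries held 590–758 CPM and the ponatinib libraries 628–702 CPM, with a larger part of *Cxcl5*.

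Because the members are copies of each other, reads could have been credited to the wrong gene. Identity and exact shared windows in the reference transcripts are given as a description. They do not bound such errors, since near matches and the handling of reads that fit several genes are not covered. The coding sequences of *CXCL1*, *CXCL2* and *CXCL3* were 90.7% to 94.4% identical and those of *CXCL5* and *CXCL6* 87.5%, whereas *CXCL8* was at most 54.2% identical to any other human member. In the mouse, *Cxcl2* and *Cxcl3* were 89.8% identical and *Cxcl5* was at most 49.0% identical to the others. Of all 100-base windows in the transcripts of a gene, 5.34% in *CXCL2* and 3.27% in *CXCL3* recurred in the other, and none in *CXCL1* or *CXCL8* recurred elsewhere. With windows of 50 bases, 13.4% in *CXCL2*, 6.01% in *CXCL3* and 4.57% in *CXCL1* recurred among these paralogs, and none in *CXCL8*. In the mouse, 3.05% of the windows of *Cxcl2* and 1.88% of those of *Cxcl3* recurred in the other, and none of *Cxcl1*. For *CXCL6*, listed at 0, no 100-base window recurred in another gene. *CXCL5* and *Cxcl5* shared 6.03% and 15.4% of windows, matched on either strand, with another gene (ENSG00000287037 and *Gm72413*), and neither of these has a row in the count tables. As an alternative chosen after seeing the data, the counts of *CXCL1*, *CXCL2* and *CXCL3* were added into 1 feature before fitting, which gave a log2 fold change of -2.25 (SE 0.08) in MDA-MB-231 and -0.56 (SE 0.10) in 4T1.

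The 3′ untranslated regions of the members held more copies than the median gene of ATTTA, the pentamer of AU-rich elements that mark short-lived mRNAs. The human members held 6 to 11 copies and the mouse members 5 to 11, where the median gene with an annotated 3′ untranslated region held 2 in human and 1 in mouse. As many copies as in the member with the fewest were held by 24.35% of human and 23.94% of mouse genes. The longer TATTTAT, held by 31.5% of human and 29.4% of mouse genes, occurred in every member except *CXCL6*. *CXCL2* (13.97 per kb) and *Cxcl2* (14.99 per kb) had the densest regions of their species' members, a density reached by 0.563% of 19550 human and 0.441% of 20854 mouse genes. *Cxcl5*, the member that rose, was the sparsest at 4.50 per kb, a density reached by 9.29% of mouse genes. Among the tested members, the order of the densities against that of the log2 fold changes was opposite in the lines. In MDA-MB-231 the density was lowest in *CXCL8* (7.19 per kb), the gene with the deepest fall, followed by *CXCL1* (7.77), *CXCL3* (10.4) and *CXCL2*, the gene with the shallowest fall. In 4T1 it was highest in *Cxcl2*, which fell most, followed by *Cxcl1* (11.82 per kb), *Cxcl3* (7.75) and *Cxcl5*. With 4 genes a line, this is a description without a test.

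The platelet chemokine genes that lie within the cluster were close to silent. In MDA-MB-231, *PF4V1* had no count, *PF4* had 1 count in 1 library, and *PPBP* had 2, 1 and 3 counts with DMSO and 0 in each ponatinib library, and none of the 3 was tested. In 4T1, *Ppbp* was tested at 0.631 ± 0.0881 and 0.886 ± 0.243 CPM (SD, n = 3), with a log2 fold change of 0.49 (adjusted P = 0.27 by edgeR). *Pf4* held at most 4 counts per library. *Cxcl15*, a mouse ELR chemokine gene known from lung, had 1, 0 and 5 counts with DMSO and 14, 7 and 8 with ponatinib and did not pass the filter.

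The genes on either side of the cluster were examined next. Of 9 flanking genes, 5 were tested in MDA-MB-231, of which 2 fell, 2 rose and 1 did not pass, where 26.8% of all tested genes fell and 27.2% rose. On the *CXCL2* side, the mitochondrial folate enzyme gene *MTHFD2L* fell by 1.10 on the log2 scale (adjusted P = 4.04e-05 by edgeR), and the distant mucin-like gene *PARM1* fell by 1.35. On the *CXCL8* side, the RAS-association gene *RASSF6* rose by 2.80 but from 1, 3 and 3 counts to 16, 27 and 11 counts. The EGF-family ligand genes *BTC*, *EREG* and *AREG* lie on the *CXCL2* side. *BTC* rose by 1.54, also from few counts (5 to 8 with DMSO, 10 to 28 with ponatinib), and *EREG* had a log2 fold change of -0.77 (adjusted P = 0.0531 by edgeR). *AREG* had 12, 8 and 8 counts with DMSO and 1, 3 and 0 with ponatinib and was not tested. *AFP* (1 to 8 counts), *AFM* (0) and *EPGN* (at most 2) were not tested either.

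In 4T1, 7 of the 9 flanking genes were tested, of which 4 fell and 2 rose, where 29.4% of all tested genes fell and 29.5% rose. The EGF-family ligand genes fell together: *Areg* from 525 ± 24.8 to 196 ± 11.9 CPM, *Ereg* from 232 ± 20.1 to 66.2 ± 6.14 CPM and *Btc* from 69.9 ± 5.69 to 18.9 ± 0.946 CPM (SD, n = 3). Their log2 fold changes were -1.42, -1.81 and -1.89. *Afp*, the alpha-fetoprotein gene, also fell, by 1.24, at 6 to 35 counts per library. *Rassf6*, on the *Cxcl5* side, rose by 0.27 (adjusted P = 0.0107 by edgeR), and *Parm1* rose by 0.93, opposite to its human namesake. *Mthfd2l*, on the *Cxcl2* side, had a log2 fold change of 0.30 (adjusted P = 0.0743 by edgeR). *Epgn* held at most 6 counts and *Afm* none.

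The receptors of ELR chemokines were not detectable at this depth in either line. *CXCR1* had no count in all 12 libraries, *CXCR2* had 1 count in 1 MDA-MB-231 library and 4 counts in 1 4T1 library, and the scavenging receptor gene *ACKR1* had 1 count in 1 MDA-MB-231 library. A count of 0 allows up to 0.164 to 0.199 CPM per MDA-MB-231 library and 0.153 to 0.17 CPM per 4T1 library.

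The expressed CXC chemokines without the ELR motif all rose in MDA-MB-231 and moved in both directions in 4T1, and their difference from the ELR members was not tested. Of 8 such genes, 3 were tested in MDA-MB-231 and all 3 rose, where 27.2% of all tested genes rose. *CXCL10* rose by 2.79 and *CXCL11* by 1.56 on the log2 scale, both interferon-induced T cell attractants with group means under 2 CPM. *CXCL16*, a membrane-bound attractant, rose by 1.11, from 2.44 to 5.27 CPM. In 4T1, *Cxcl10* fell by 1.78, from 13.0 to 3.78 CPM (adjusted P = 1.15e-06 by edgeR). *Cxcl11* rose by 0.91 and *Cxcl16* by 0.69, the latter from 38.3 to 61.6 CPM. The direction of *Cxcl10* was thus opposite to that of *CXCL10*, at a low human level.

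Genes of the pathway that induces ELR chemokines were found among both the falls and the rises in each line. The list held 65 genes, from interleukin-1 ligands to NF-κB subunits and mRNA-binding proteins, and 59 were tested in each line. In MDA-MB-231, 27 fell and 13 rose (median log2 fold change -0.24), and in 4T1, 23 fell and 18 rose (median -0.03). Over all tested genes, 26.8% fell and 27.2% rose in MDA-MB-231, and 29.4% fell and 29.5% rose in 4T1, so the 18 rises in 4T1 are close to that share.

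Among the ligands, all that were tested fell, 3 of 3 in MDA-MB-231 and 2 of 2 in 4T1. The shares of all tested genes that fell were 26.8% and 29.4%. *IL1B*, which encodes the cytokine interleukin-1β, showed the largest fall of the list in MDA-MB-231, from 320 to 8.21 CPM (log2 fold change -5.29, adjusted P = 1.52e-11 by edgeR). *IL1A* fell by 2.92, from 20.2 to 2.66 CPM. In 4T1, *Il1b* averaged 0.148 CPM with DMSO and was not tested, and *Il1a* fell by 2.64 from only 2.42 CPM. *Il1rl1*, the gene of the interleukin-33 receptor, fell by 3.06 in 4T1 from 3.97 to 0.47 CPM, and the pattern-recognition receptor gene *Tlr2* rose by 1.43. In MDA-MB-231, the receptor genes *IL17RC* and *TNFRSF1B* rose by 1.01 and 0.90.

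Of the p38 branch, 8 genes were tested in MDA-MB-231, where 4 fell and 1 rose. In 4T1, 7 were tested, with 2 lower and 2 higher. Among all tested genes, the lower share was 26.8% for MDA-MB-231 and 29.4% for 4T1. The higher share was 27.2% and 29.5%, respectively. The 4T1 counts of this branch lie close to these shares. *MAPK14*, which encodes p38α, had a log2 fold change of -0.39 in MDA-MB-231 (adjusted P = 0.00271) and 0.26 in 4T1 (adjusted P = 0.00725 by edgeR). *MAPKAPK2*, the gene of its substrate kinase, did not pass in either line (-0.03 and -0.04). *MAP2K6*, which encodes an activator of p38, rose by 4.87 in MDA-MB-231, from 0.41 to 12.2 CPM.

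Of 15 transcription factor genes, 6 fell and 5 rose in MDA-MB-231, and 5 fell and 5 rose in 4T1. Over all tested genes, 26.8% fell and 27.2% rose in MDA-MB-231, and 29.4% fell and 29.5% rose in 4T1. The 4T1 counts are close to these shares. The NF-κB subunit gene *RELA* fell by 0.24 and 0.31 in MDA-MB-231 and 4T1, and *NFKB1* had log2 fold changes of -0.72 (adjusted P = 1.72e-05 by edgeR) and 0.01 (adjusted P = 0.942). Among AP-1 genes, *FOSL1* fell by 2.72 and 1.62, and *JUN* by 1.53 and 3.16, in MDA-MB-231 and 4T1. *FOS* rose by 2.38 in MDA-MB-231 and had a log2 fold change of 0.12 in 4T1 (adjusted P = 0.378 by edgeR). The immediate-early gene *EGR1* fell by 1.74 in MDA-MB-231, and the C/EBP gene *CEBPD* rose by 1.11 and 0.73.

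Among the inhibitors, *TNFAIP3*, the gene of the NF-κB feedback inhibitor A20, fell by 1.54 in MDA-MB-231. In 4T1, the inhibitor genes *Nfkbie* and *Nfkbia* rose by 1.61 and 0.80, and *Dusp1*, a MAP kinase phosphatase gene, fell by 2.40. The genes of mRNA-binding proteins that act on AU-rich elements fell in 4 of 6 cases in MDA-MB-231 and in 5 of 6 in 4T1, where 26.8% and 29.4% of all tested genes fell. *ZFP36*, which encodes the mRNA-destabilizing protein tristetraprolin, had log2 fold changes of -0.11 (adjusted P = 0.512) and -0.25 (adjusted P = 0.0259 by edgeR).

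**Figure D4:**
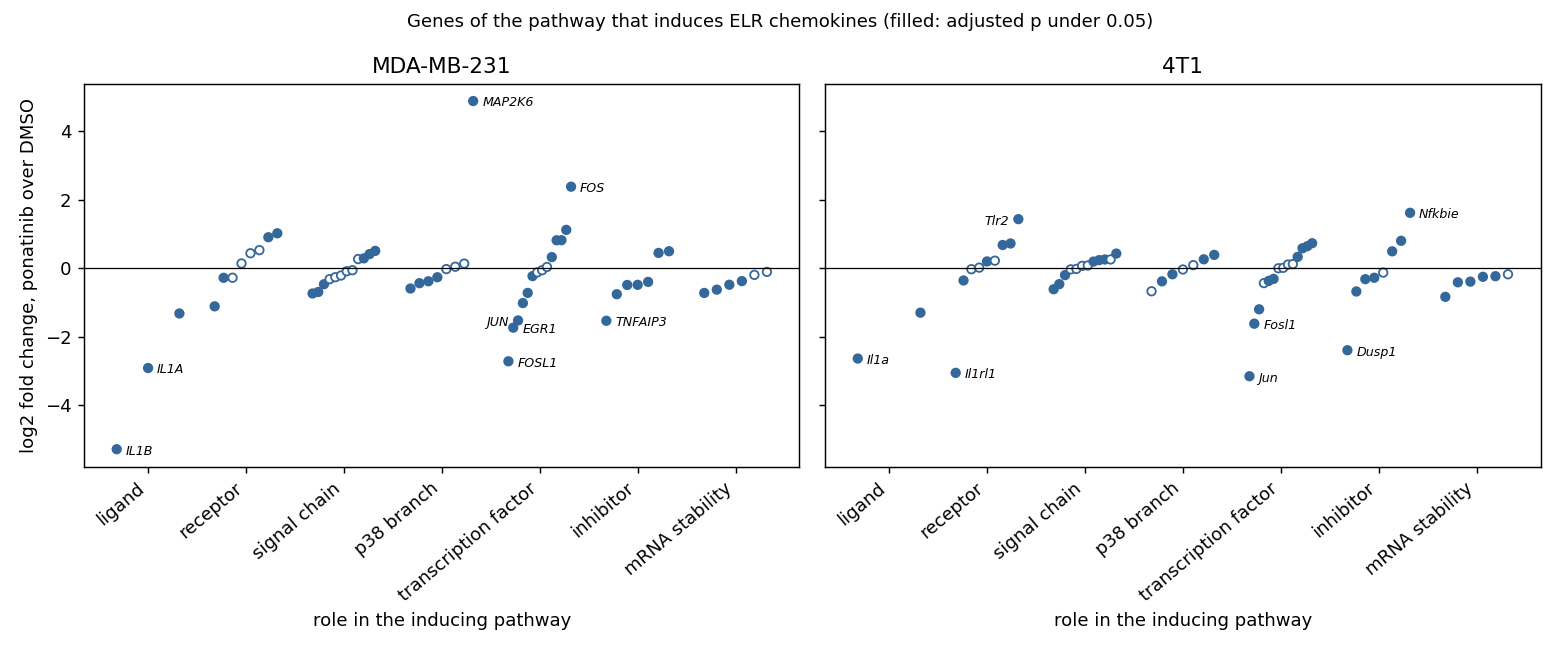
Log2 fold change of ponatinib over DMSO (vertical axis) for tested genes of the inducing pathway, 1 gene left out, grouped by role, with MDA-MB-231 on the left and 4T1 on the right. Filled points have an adjusted P under 0.05, and points are ordered by value within a role. *IL1B* lies at -5.29 in MDA-MB-231 and *Jun* at -3.16 in 4T1, and every role except the ligands and mRNA stability holds genes on both sides of 0.

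The genes whose profile over the 6 libraries of a line was nearest to a member were found by the Euclidean distance of centered log2 CPM, as a description. For *CXCL8* they were *PTGS2*, the cyclooxygenase-2 gene (distance 0.21), *RELN* and *MPP4*, and *PTGS2* went from 41.8 to 3.80 CPM. For *CXCL1* they were *HBEGF* (0.0791), an EGF-receptor ligand gene, *BCL2A1* and *CDKN1A*. For *CXCL3* they were *ADAM19* (0.162), *DUSP6* and *CCND1*. In 4T1, they were *Sec61b* (0.16), *Cdkn1a* and *Erhrt-ps* for *Cxcl1*, *Gm13436* (0.0829), *Kdm4b* and *Atp6v0c-ps2* for *Cxcl3*, and *Mapk1ip1* (0.0846), *Pik3r5* and *Gfi1* for *Cxcl5*. *CDKN1A*, which encodes the cell-cycle inhibitor p21, was the 1 symbol found in both lines, near *CXCL1* each time.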

How the data were processed

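RNA-seq was analysed in 12 libraries, 3 per group, assigned to groups from their labels. Per the labels and methods, the authors extracted RNA (TRIzol), prepared libraries (NEBNext Ultra kit), mapped reads with HISAT2 (human hg38, mouse GRCm39) and assigned them to genes by HTSeq. The deposited unit is the raw count, whole numbers with no scaling. Tool versions, annotation and strand setting are not given in the sources used here, so reads of overlapping genes on opposite strands may not have been told apart. GENCODE v44 and vM39 gave names, coordinates and lengths and matched 81.95% of human and 91.07% of mouse identifiers (99.32% and 99.79% of counts).

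Each line was fitted apart in edgeR 4.0.16 (R 4.3.3) with filterByExpr, TMM, the quasi-likelihood test and Benjamini-Hochberg adjustment over all tested genes, and the steps were tested on simulated data. CPM used TMM-scaled totals. RPKM divided CPM by merged exon length. The members and all lists were chosen with earlier results of these data known. Named genes are all members, all genes of the cluster, flanking and receptor lists, 6 fixed genes and the 5 largest falls and rises of the inducing pathway in each line, called chemokines without ELR, and the 3 nearest profiles (prior count 2). For 1 gene of this rule the results are not reported here. Marker genes, *Il1b* and *Fos* in 4T1 and *JUN*, *NFKBIA*, *NFKBIE* and *DUSP1* in MDA-MB-231 were named after their values were seen. The letters GGAATTTCC were chosen because the member windows share them.

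No library was a copy of another. Replicate numbers were checked for pairing, and same-numbered DMSO and ponatinib libraries deviated together. Correlations were 0.345, 0.111 and 0.133 for MDA-MB-231 and 0.213, 0.119 and 0.115 for 4T1. However, DMSO replicate 2 of MDA-MB-231 and DMSO replicate 3 of 4T1 correlated better with a ponatinib library of another number. The numbers were taken to pair the libraries on these values alone, and the main fits left this pairing out. Alternatives were DESeq2 1.42.0, its size factors, total counts, other filters (no filter, or 10 counts in every library), the replicate block and each library left out.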

Additional observations from a re-analysis of the deposited data

Results flagged for a closer look

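The effect of ponatinib on *CXCL1* differed between the lines by 1.72 on the log2 scale (4T1 minus MDA-MB-231, edgeR interaction test), being lower in 3 of 3 ponatinib libraries of each line but more so in MDA-MB-231. For *CXCL2* the difference was -1.34, with the deeper fall in 4T1. For *CXCL3* it was 1.78, with all 3 ponatinib libraries lower in MDA-MB-231 and overlapping groups in 4T1. All were singled out because the difference itself passed the test, as did 41.9% of the genes tested.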

How the results depend on the processing

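Alternatives were run 218 times over the results on members, and 5 reversed, all of them values that passed no test. The others kept direction and side of the threshold, except that the summed log2 ratio in 4T1, which has no test, went from -0.03 to 0.08 with total counts, within its spread. *Cxcl3* in 4T1 went from -0.11 to 0.0043 with total counts and, over the libraries left out in turn, ranged from -0.19 to 0.0029. The difference between the lines in *CXCL5* ranged from -0.75 to 3.82 over the libraries left out, since it rests on at most 4 human counts. Scaling by total counts shifted the median over all genes to 0.11 for MDA-MB-231 (0.02 with TMM) and to 0.12 for 4T1 (-0.00014 with TMM), where lower calls became 37.7% of all calls in place of 49.9%. *Cxcl5* stood at 0.59 there, above that median. With the replicate block, *CXCL8* had a log2 fold change of -3.40, *CXCL3* -1.97 and *Cxcl5* 0.47, and the pairing changed no call of a member. The SE of *CXCL8* was 0.05 with the block and 0.13 in the main fit. No rank by RPKM changed when the longest transcript replaced merged exons. Windows of 50 bases shared up to 21.3% with other genes (*Cxcl5*) and windows of 150 bases up to 12.5%. Low human *CXCL5* and *CXCL6* counts limit any statement on them.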
